A study of Rattus norvegicus with 24 samples.

Results

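The lungs of PBS-injected control rats collected at Week 3 were compared with those collected at Week 2, with attention to how far the rats of 1 group differed from each other in immune and interferon genes. The 8 libraries used were the columns of the deposited count table that the labels assign to PBS Week 3 and PBS Week 2, out of 24 libraries in all. The PBS Week 3 group was 4 wild-type (WT) male SD rats given 1 intraperitoneal injection of PBS with lungs taken at day 21, and the PBS Week 2 group was 4 such rats with lungs taken at day 14. The MCT Week 3 and MCT Week 2 groups, set beside them at the end, were 4 rats each that had received monocrotaline (MCT) at 50 mg/kg in place of PBS and were taken on the same days. MCT is a plant alkaloid that injures the pulmonary endothelium and is used to induce pulmonary hypertension in rats. The remaining 8 rats of the study, PBS Week 1 and MCT Week 1, entered only the alternative fits that used every library and the scaling of expression levels given for MCT rats. List means of the PBS Week 1 rats are given at the end.

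The PBS rats carried no transgene and received no drug, so the comparison concerns vehicle-injected animals at separate harvests. Each library was RNA from a piece of lung of 1 rat, and the lungs had been perfused with PBS to remove blood. The age of the rats is not given in the sources used here. Week of harvest, age, time since injection and whatever else separated the libraries of the 2 weeks cannot be told apart, and no batch is named in the labels. In bulk lung, more cells of a type and more RNA per cell cannot be told apart either. Lung markers were abundant in every library. Sftpa1, which encodes surfactant protein A, had 6247, 4917, 7076 and 5517 CPM (the gene's counts scaled to a fixed library total) in PBS Week 3 rats 1 to 4, against 4965, 5310, 5947 and 5024 CPM in PBS Week 2 rats 1 to 4 (log2 fold change 0.16, SE 0.11, adjusted p = 0.378, edgeR quasi-likelihood test with Benjamini-Hochberg adjustment).

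Type I interferons bind a receptor that activates a transcription factor complex containing IRF9, which binds interferon-stimulated response elements near the start of genes such as Mx1 and Ifit3. The products of these genes block viral replication and sense foreign nucleic acid. IRF7 is itself induced in this way and raises further interferon transcription. Interferon-gamma, made by natural killer (NK) cells and T cells, acts through a separate receptor and induces guanylate-binding proteins and MHC class I. NK cells are a large part of the lymphocytes of normal rodent lung.

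To show where such an element lies in the genes described here, promoter windows from 250 bases before to 50 bases after the annotated start were taken from RefSeq (build GRCr8) and searched on both strands for GAAANNGAAA, a core of the interferon-stimulated response element. The motif was in 12 of the 22 promoters found for interferon-stimulated genes that rose (54.5%), in 8 of the 14 found for those not called (57.1%), and in 1034 of all 27457 promoters (3.77%). A match is a description of the letters and not a measured binding site. The following windows, written 5′ to 3′ on the gene's strand with the motif in capitals (TTTCNNTTTC where it lies on the opposite strand), belong to 4 genes that rose and to Oas1a, which did not pass the test. They lie at chr1:205800063-205800112 on the minus strand (Irf7), chr4:32138952-32139001 on the minus strand (Samd9), chr1:241527262-241527311 on the plus strand (Ifit3), chr2:243328644-243328693 on the plus strand (Ifi44l) and chr12:41330411-41330460 on the plus strand (Oas1a). Samd9, Ifi44l and Oas1a hold further matches in the same promoter, some of them overlapping.
Irf7: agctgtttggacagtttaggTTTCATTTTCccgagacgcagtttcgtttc
Samd9: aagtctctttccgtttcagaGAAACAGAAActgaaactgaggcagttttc
Ifit3: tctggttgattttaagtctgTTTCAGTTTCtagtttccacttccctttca
Ifi44l: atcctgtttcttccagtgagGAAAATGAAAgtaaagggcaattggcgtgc
Oas1a: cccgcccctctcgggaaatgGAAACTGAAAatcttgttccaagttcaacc

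Between PBS Week 3 and PBS Week 2 lungs, interferon-stimulated, NK cell and mitochondrially encoded genes were higher at Week 3, and collagen and other matrix genes were lower. Of 15940 genes tested, 421 were higher in PBS Week 3 lungs (2.64%) and 368 were lower (2.31%), or 4.95% in either direction, at an adjusted p below 0.05 and a change over 1.5-fold (edgeR quasi-likelihood test with Benjamini-Hochberg adjustment). The PBS Week 3 libraries held 28357609 to 31082646 counts and the PBS Week 2 libraries 29281657 to 31501340. The 2 percentages are the background for the counts below. At an unadjusted p below 0.05 with no fold threshold, 2489 of the 15940 genes were higher and 2157 lower (edgeR). Those are the background for the unadjusted counts of lists below. All 4 PBS Week 3 rats lay above all 4 PBS Week 2 rats in 10.2% of genes tested, and below all of them in 9.70%. The first principal component of the 8 libraries, with 37.7% of the variance, separated the weeks (two-sided exact permutation p = 0.0286, the smallest that 4 against 4 rats can give), and PBS Week 3 rat 3 alone held 51.1% of its sum of squares.

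The number of calls depended on single libraries. Without PBS Week 2 rat 2, rat 3 or rat 4 the counts were 5 higher and 6 lower, 8 and 8, and 6 and 7. Without PBS Week 3 rat 2 they were 238 and 258, without PBS Week 3 rat 3 they were 195 (1.20%) and 199 (1.23%), and without PBS Week 3 rat 4 they were 657 and 530. With all 24 libraries in 1 fit no gene was called by edgeR, with 1056 higher and 716 lower at an unadjusted p below 0.05 and a smallest adjusted p of 0.0684. That fit includes the PBS Week 1 libraries, which ranged from 12491 to 16033 genes with at least 10 counts, against 15614 to 16096 in PBS Week 3 and 15962 to 16115 in PBS Week 2 libraries. On the 8 libraries DESeq2 called 610 higher (3.83%) and 548 lower (3.44%), and limma-voom 346 (2.17%) and 347 (2.18%).

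Genes named here follow a rule of fold change, list membership and spread, except Irf9, Ifi44l, Isg15, Rsad2, Rtp4, Ifit2, Eif2ak2, Oas1a, Cd8a, Mki67, Prf1, Il2rb, Tbx21, Tlr3, Socs3, Tnc, Col5a1, Col6a1 and Col18a1, which were added after their values were seen. Symbols were known for 3275 identifiers, all of them genes that the study had listed as changed between MCT and PBS lungs, using these same control rats. Among the 3273 of them tested, 8.10% were higher and 3.82% lower in PBS Week 3 lungs, which is above the shares of all genes. The counts of named lists below stand against those shares, and the lists are not independent evidence of a direction. The largest changes of genes with no symbol were those of ENSRNOG00000049024 (log2 fold change 3.83) and ENSRNOG00000023943 (3.38), which rose, and ENSRNOG00000003645 (−3.11) and ENSRNOG00000046246 (−3.09), which fell.

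Of 66 listed genes 47 were tested, and 26 rose, none fell and 21 did not pass the test (median log2 fold change 0.82, against −0.01 for all genes tested). DESeq2 called 32 of them higher and limma-voom 19. The groups did not overlap in 15 of the 26. Among the 21 not called, 20 had a positive fold change.

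The rise was uneven between rats. Mx1 (chr11:37891156-37914983, build Rnor_6.0), which encodes an antiviral GTPase, had 64.7, 149, 129 and 396 CPM in PBS Week 3 rats 1 to 4, against 42.8, 48.4, 37.1 and 45.1 CPM in PBS Week 2 rats 1 to 4. Every PBS Week 3 rat lay above every PBS Week 2 rat, with rat 1 near them and rat 4 far above. The means were 185 ± 145 CPM in PBS Week 3 and 43.3 ± 4.77 CPM in PBS Week 2 lungs (SD, n = 4 each), a 4.26-fold rise (log2 fold change 2.09, SE 0.43, adjusted p = 0.0249, edgeR). Irf7 (chr1:214248837-214252456), the transcription factor described above, had 72.4, 218, 217 and 509 CPM in PBS Week 3 rats 1 to 4, against 58.9, 84.9, 67.3 and 61.1 CPM in PBS Week 2 rats 1 to 4. Here rat 1 lay within the PBS Week 2 range and the other three rats were above it (log2 fold change 1.90, SE 0.44, adjusted p = 0.0293, edgeR).

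Slfn4 (chr10:70411738-70435156), a Schlafen family member induced by interferon in myeloid cells of the mouse, had 350.1, 557, 1343 and 1654 CPM in PBS Week 3 rats 1 to 4, against 186, 302, 204 and 191 CPM in PBS Week 2 rats 1 to 4. The groups did not overlap (log2 fold change 2.14, SE 0.42, adjusted p = 0.0216, edgeR). Samd9 (chr4:28305002-28310178), a restriction factor of poxviruses in human cells, had 94.8, 114, 131 and 195 CPM in PBS Week 3 rats 1 to 4, against 46.9, 46.9, 39.5 and 40.0 CPM in PBS Week 2 rats 1 to 4. All 4 PBS Week 3 rats were above every PBS Week 2 rat, with the smallest adjusted p among the interferon-stimulated genes named here (log2 fold change 1.63, SE 0.20, adjusted p = 0.00889, edgeR). Ifi44l (chr2:256964860-256978668) had 43.5, 74.2, 75.0 and 85.0 CPM in PBS Week 3 rats 1 to 4, against 28.3, 28.4, 23.4 and 21.0 CPM in PBS Week 2 rats 1 to 4. Its groups did not overlap either (log2 fold change 1.46, SE 0.19, adjusted p = 0.0118, edgeR).

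In several effectors and regulators rat 1 showed no elevation at all. Usp18, a protease that removes ISG15 from proteins and restrains interferon signalling, had 15.3, 52.8, 61.7 and 92.0 CPM in PBS Week 3 rats 1 to 4, against 17.0, 20.3, 13.7 and 18.7 CPM in PBS Week 2 rats 1 to 4 (log2 fold change 1.67, adjusted p = 0.0324, edgeR). Ifit3, whose protein binds viral RNA together with IFIT1, had 19.4, 43.7, 53.4 and 133 CPM in PBS Week 3 rats 1 to 4, against 20, 21.5, 24.1 and 16.7 CPM in PBS Week 2 rats 1 to 4 (log2 fold change 1.60, adjusted p = 0.0464, edgeR). In both genes rat 1 lay inside the PBS Week 2 range and rats 2, 3 and 4 above it. Herc6 (log2 fold change 1.65), Rtp4 (1.17), and Irf9 (0.69), the DNA-binding part of the interferon complex, also rose with overlapping groups. Ifit2 (1.34), Phf11 (1.62) and Eif2ak2 (1.02), which encodes the RNA-activated kinase PKR, rose with groups that did not overlap.

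Oas2 and Isg15 were not called, and in both rat 1 was the lowest and rat 4 the highest PBS Week 3 rat. Oas2, an oligoadenylate synthase that activates RNase L, had 7.70, 35.2, 28.3 and 66.1 CPM in PBS Week 3 rats 1 to 4, against 15.8, 15.6, 8.89 and 12.2 CPM in PBS Week 2 rats 1 to 4. Rat 1 was below every PBS Week 2 rat while rats 2, 3 and 4 were above (log2 fold change 1.39, SE 0.48, adjusted p = 0.0822, edgeR). Isg15, a ubiquitin-like modifier, had 12.3, 28.5, 19.7 and 58.4 CPM in PBS Week 3 rats 1 to 4, against 15.4, 22.7, 18.6 and 17.4 CPM in PBS Week 2 rats 1 to 4 (log2 fold change 0.68, adjusted p = 0.26, edgeR). Rsad2 (log2 fold change 1.13, adjusted p = 0.0536, edgeR) and Mx2 (1.38) were further members past 1.5-fold that did not pass the test.

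**Figure D1:**
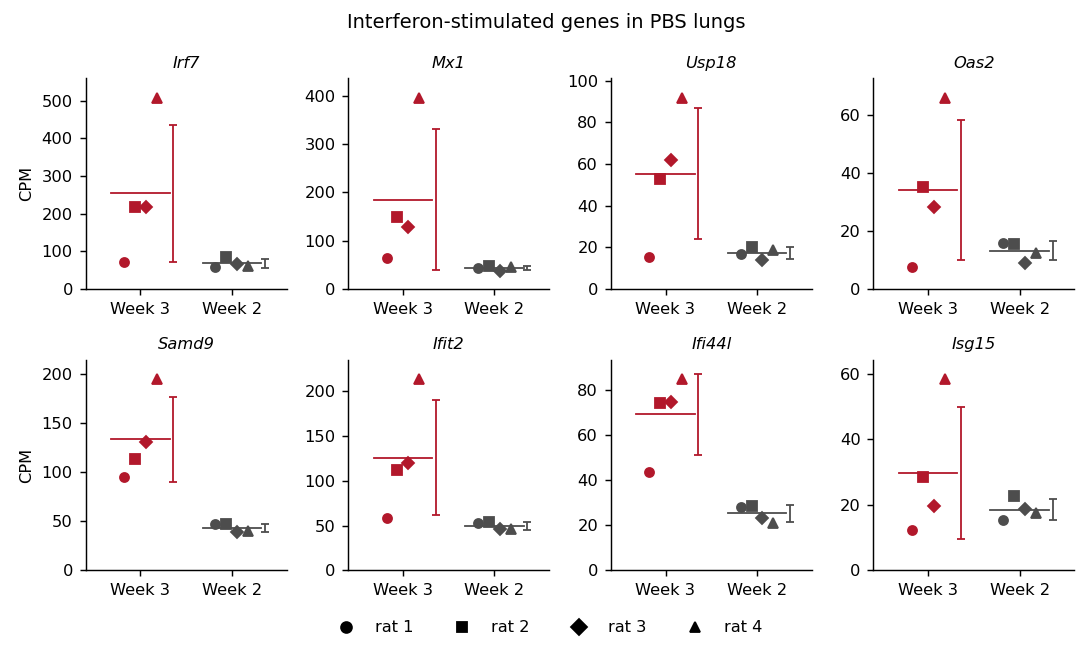
CPM (linear axes from 0) of 8 interferon-stimulated genes in PBS Week 3 rats (left, red) and PBS Week 2 rats (right, grey), with a marker shape per rat, the mean as a horizontal line and ± 1 SD as the bar beside it (n = 4 each). Rat 4 is the highest PBS Week 3 rat in each panel, while rat 1 is near or inside the PBS Week 2 range in Mx1, Irf7 and Usp18 and below it in Oas2.

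Averaged over the 47 genes, log2 CPM stood 0.08, 0.93, 0.90 and 1.55 above the PBS Week 2 mean in PBS Week 3 rats 1 to 4, against 0.03, 0.09, −0.10 and −0.03 in PBS Week 2 rats 1 to 4. Thus rat 1 was at the PBS Week 2 level on average, and the group difference came from rats 2, 3 and 4. Rat 4 was above all 4 PBS Week 2 rats in 47 of 47 genes, rat 2 in 44, rat 3 in 39 and rat 1 in 16, against 27.6%, 31.4%, 34.9% and 31.3% of all genes tested in the same order of rats. Within PBS Week 3, rat 4 was the highest in 43 of 47 genes and rat 1 the lowest in 45, against 23.4% and 22.7% of all genes tested. The number of list members called was 1 without PBS Week 2 rat 2, 3 or 4, 16 without PBS Week 2 rat 1, 36 without PBS Week 3 rat 1, and 15 without PBS Week 3 rat 2.

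The spread between rats was itself wider at Week 3. The median SD of log2 CPM over the 47 interferon-stimulated genes was 0.55 among PBS Week 3 rats and 0.17 among PBS Week 2 rats, and it was the larger at Week 3 in 46 of the 47 genes. Over all genes tested the median SD was 0.283 in PBS Week 3 and 0.187 in PBS Week 2 lungs, and 73.0% of genes had the larger SD at Week 3. An SD at least 2 times as large at Week 3 was found in 42 of the 47 interferon-stimulated genes, against 33.7% of all genes, while 5.82% of all genes had an SD at least 2 times as large at Week 2. Genes of 1 list share the same rats and are not independent measurements of their spread, so no test is given. With 1 rat at a time left out, the median SD of the list lay between 0.37 and 0.663 in PBS Week 3 and between 0.137 and 0.159 in PBS Week 2 lungs.

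**Figure D2:**
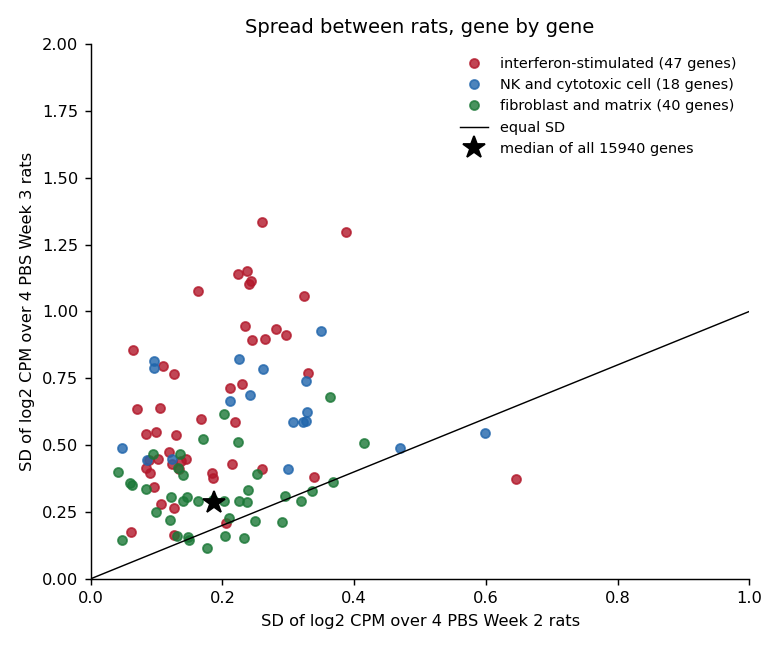
Each point is 1 gene, with the SD of log2 CPM over the 4 PBS Week 3 rats on the vertical axis and over the 4 PBS Week 2 rats on the horizontal axis, for the interferon-stimulated, NK and cytotoxic, and matrix lists. The line marks equal SDs and the star the medians of all genes tested (0.283 at Week 3 and 0.187 at Week 2). Of the 47 interferon-stimulated genes 46 lie above the line.

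Genes induced mainly by interferon-gamma rose in part. Of 12 tested, 5 rose, none fell and 7 did not pass the test (median log2 fold change 0.48). The 5 were the guanylate-binding proteins Gbp4, Gbp5 and Gbp2 and the immunity-related GTPases Irgm and Igtp. Gbp4 (chr2:248249468-248263168) had 8.66, 19.2, 8.25 and 33.7 CPM in PBS Week 3 rats 1 to 4, against 5.60, 5.43, 4.49 and 4.78 CPM in PBS Week 2 rats 1 to 4. All PBS Week 3 rats were higher, with rats 2 and 4 highest (log2 fold change 1.78, SE 0.41, adjusted p = 0.0291, edgeR). Ciita, the master regulator of MHC class II, had a log2 fold change of −0.44 (adjusted p = 0.119, edgeR). In the promoter search above, the motif was in 5 of 5 promoters of the genes that rose and 0 of 5 found for the 7 not called. This is 1 small list of 30, chosen with earlier results known. In the interferon-stimulated list the shares were 54.5% for genes that rose and 57.1% for those not called. Whether the motif goes with a rise was not tested. Guanylate-binding proteins are close copies of each other, and how reads shared between them were counted is not given in the sources used here. Their values as single genes are therefore uncertain.

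Of 13 MHC class I genes 3 rose and none fell. B2m (chr3:114087287-114093309), the light chain of MHC class I, had 3984, 3295, 3392 and 3745 CPM in PBS Week 3 rats 1 to 4, against 2042, 2181, 2093 and 2216 CPM in PBS Week 2 rats 1 to 4. Unlike the interferon-stimulated genes it was about as high in every PBS Week 3 rat, rat 1 included, and the groups were far apart (3604 ± 319 CPM in PBS Week 3 and 2133 ± 79.9 CPM in PBS Week 2 lungs, SD, n = 4 each). It rose 1.69-fold (log2 fold change 0.76, SE 0.08, adjusted p = 0.00889, edgeR). RT1-CE4 (0.67) and RT1-N3 (0.59), heavy-chain genes of a family of near-identical copies and therefore uncertain as single genes, also rose. None of the 10 tested MHC class II and dendritic cell genes was called by edgeR, DESeq2 or limma-voom, with 4 higher and none lower at an unadjusted p below 0.05.

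Among 28 tested inflammatory cytokine and inflammasome genes 6 rose, 2 fell and 20 did not pass the test. Aim2 (chr13:91954138-91962588), a cytosolic DNA sensor that assembles an inflammasome, had 12.7, 15.7, 13.9 and 21.0 CPM in PBS Week 3 rats 1 to 4, against 4.65, 4.78, 3.82 and 4.48 CPM in PBS Week 2 rats 1 to 4. The lowest PBS Week 3 rat was well above the highest PBS Week 2 rat (log2 fold change 1.83, SE 0.20, adjusted p = 0.00889, edgeR). Casp1, the protease that inflammasomes activate, had 86.5, 84.4, 108 and 100 CPM in PBS Week 3 rats 1 to 4, against 58.8, 52.2, 47.6 and 57.6 CPM in PBS Week 2 rats 1 to 4 (log2 fold change 0.81, adjusted p = 0.0153, edgeR). In both genes rat 1 lay above every PBS Week 2 rat, and in Aim2 it was the lowest and rat 4 the highest of the PBS Week 3 rats. Il15 (log2 fold change 0.94), a cytokine that sustains NK cells, Tlr3 (0.68), a receptor for double-stranded RNA, the chitinase gene Chia (0.86) and Retnla (0.98), a product of alternatively activated macrophages in the mouse, rose as well. Ccl21, a lymphoid chemokine, fell by 0.86 on the log2 scale, and Socs3, an inhibitor of cytokine signalling, was the other to fall.

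NK and cytotoxic cell genes formed another group that rose. Of 28 listed genes 18 were tested, and 13 rose, none fell and 5 did not pass the test (median log2 fold change 1.14). DESeq2 called 15 and limma-voom 11. Klrd1 (chr4:163358009-163369854), which encodes the CD94 receptor chain, had 39.3, 20.5, 39.2 and 28.5 CPM in PBS Week 3 rats 1 to 4, against 10.1, 10.1, 10.1 and 12 CPM in PBS Week 2 rats 1 to 4. The groups did not overlap, and the PBS Week 2 rats were nearly equal (31.9 ± 9.13 CPM in PBS Week 3 and 10.6 ± 0.942 CPM in PBS Week 2 lungs, SD, n = 4 each), a 3.02-fold rise (log2 fold change 1.59, SE 0.20, adjusted p = 0.0116, edgeR). Klrc2 (chr4:163416351-163445302), an NKG2 chain that pairs with CD94, had 27.4, 10.3, 26.1 and 23.9 CPM in PBS Week 3 rats 1 to 4, against 7.00, 6.90, 5.20 and 5.64 CPM in PBS Week 2 rats 1 to 4 (log2 fold change 1.82, adjusted p = 0.0175, edgeR). Rat 2 was the lowest PBS Week 3 rat in both. The NKG2 genes are close copies of each other, and how reads shared between them were counted is not given either.

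Eomes, a transcription factor of mature NK cells, had 8.62, 2.43, 3.87 and 6.16 CPM in PBS Week 3 rats 1 to 4, against 1.79, 1.18, 1.72 and 1.49 CPM in PBS Week 2 rats 1 to 4 (log2 fold change 1.77, adjusted p = 0.0285, edgeR). Ncr1, which encodes the NK receptor NKp46, had 14.3, 10, 33.0 and 26.4 CPM in PBS Week 3 rats 1 to 4, against 8.36, 7.79, 8.03 and 7.13 CPM in PBS Week 2 rats 1 to 4 (log2 fold change 1.42, adjusted p = 0.0285, edgeR). Both genes were higher in every PBS Week 3 rat than in any PBS Week 2 rat. Gzma, a granzyme of cytotoxic granules, had 38.4, 11.5, 22.9 and 49.4 CPM in PBS Week 3 rats 1 to 4, against 11.5, 9.49, 15.0 and 8.62 CPM in PBS Week 2 rats 1 to 4, with rat 2 inside the PBS Week 2 range (log2 fold change 1.45, adjusted p = 0.0375, edgeR). Il2rb (log2 fold change 1.06), the shared receptor chain for IL-2 and IL-15, Tbx21 (1.09), Klrg1 (1.44) and Gzmk (1.19) also rose. Prf1, which encodes perforin (log2 fold change 0.82, adjusted p = 0.0621, edgeR), and Nkg7 (1.09, adjusted p = 0.0525) were not called.

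Averaged over the 18 genes, log2 CPM stood 1.45, 0.29, 1.05 and 1.39 above the PBS Week 2 mean in PBS Week 3 rats 1 to 4. Rat 2 was therefore the low rat for NK genes, and was the lowest of PBS Week 3 in 16 of 18, against 20.2% of all genes tested. Rat 1, the low rat for interferon-stimulated genes, was the highest for NK genes in 10 of 18, against 23.6% of all genes tested. The summed level of the 18 genes was 322.6 to 760.1 CPM in PBS Week 3 and 266.3 to 310.0 CPM in PBS Week 2 lungs. The median SD between rats was 0.61 in PBS Week 3 and 0.28 in PBS Week 2 lungs, and was larger at Week 3 in 17 of 18 genes. The number called was 0 without PBS Week 2 rat 2 or rat 3, 1 without PBS Week 2 rat 4, 5 without PBS Week 2 rat 1, 5 without PBS Week 3 rat 1, 4 without PBS Week 3 rat 3 and 8 without PBS Week 3 rat 4.

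**Figure D3:**
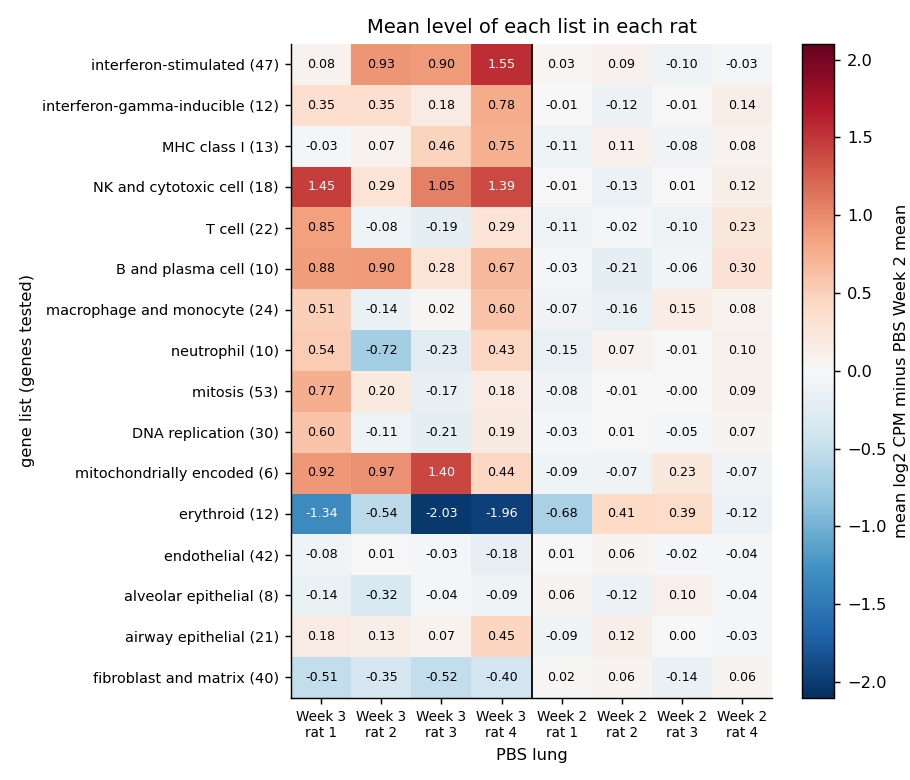
Mean log2 CPM of the genes of each list in each rat, minus the PBS Week 2 mean of the list, with PBS Week 3 rats in the 4 left columns and PBS Week 2 rats in the 4 right columns (red is higher, blue lower, number of genes tested in parentheses). The interferon-stimulated list stood at 0.08 in rat 1 and 1.55 in rat 4 of PBS Week 3, while the NK and cytotoxic list stood at 1.45 in rat 1 and 0.29 in rat 2.

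Few T cell genes were called. Of 22 tested, 2 rose, Cd69 (log2 fold change 1.34), an activation marker that NK cells also carry, and Cd96 (1.15), a receptor shared by T and NK cells. The list mean stood 0.85, −0.08, −0.19 and 0.29 above the PBS Week 2 mean in PBS Week 3 rats 1 to 4, so that rat 1 was apart. Rat 1 was the highest PBS Week 3 rat in 17 of the 22 genes, against 23.6% of all genes tested. Without rat 1 the median log2 fold change of the list was −0.06, against 0.31 with it. Cxcr3, a chemokine receptor of activated T cells, had 16.2, 3.05, 2.79 and 5.53 CPM in PBS Week 3 rats 1 to 4, against 3.71, 3.76, 4.78 and 6.40 CPM in PBS Week 2 rats 1 to 4 (log2 fold change 0.56, adjusted p = 0.505, edgeR). Only rat 1 exceeded the PBS Week 2 range, and without it the sign turned (−0.30). Cd8a had 64.4, 18.1, 21.1 and 41.1 CPM in PBS Week 3 rats 1 to 4, against 22.5, 15.0, 15.3 and 22.7 CPM in PBS Week 2 rats 1 to 4 (log2 fold change 0.94, adjusted p = 0.108, edgeR). Foxp3, the regulatory T cell factor, had 2.51, 0.871, 0.181 and 1.67 CPM in PBS Week 3 rats 1 to 4, against 1.99, 2.16, 2.23 and 2.79 CPM in PBS Week 2 rats 1 to 4. Rats 2, 3 and 4 were below every PBS Week 2 rat and rat 1 was inside their range (log2 fold change −0.80, adjusted p = 0.411, edgeR).

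Proliferation genes shared the high rat of the T cell list. Of 53 tested mitosis genes, Knl1 (log2 fold change 1.01) and Spc25 (0.80), both components of the outer kinetochore, rose and none fell. DESeq2 called 8 higher and limma-voom 4, and 16 were higher at an unadjusted p below 0.05. Mki67, the Ki-67 antigen of cycling cells, had 113, 52.6, 46.9 and 76.6 CPM in PBS Week 3 rats 1 to 4, against 44.3, 48.4, 50.1 and 50.6 CPM in PBS Week 2 rats 1 to 4 (log2 fold change 0.58, adjusted p = 0.126, edgeR). Rats 1 and 4 were high and rats 2 and 3 were near the PBS Week 2 range. Rat 1 was the highest PBS Week 3 rat in 44 of the 53 genes, against 23.6% of all genes tested. Without it the median log2 fold change of the list was 0.09, against 0.29 with it, and none was called. None of 30 tested DNA replication genes was called by edgeR or limma-voom, with 4 higher and 1 lower at an unadjusted p below 0.05, and DESeq2 called 1.

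Among 10 tested B and plasma cell genes 4 rose and none fell. Ms4a1, the B cell marker CD20, had 19.3, 16.4, 13.2 and 14.0 CPM in PBS Week 3 rats 1 to 4, against 8.40, 6.12, 6.28 and 8.59 CPM in PBS Week 2 rats 1 to 4, without overlap (log2 fold change 1.10, SE 0.19, adjusted p = 0.0194, edgeR). Jchain, which joins IgA and IgM units in plasma cells, had 126, 284, 51.4 and 92.7 CPM in PBS Week 3 rats 1 to 4, against 26.2, 20.2, 57.3 and 51.4 CPM in PBS Week 2 rats 1 to 4 (log2 fold change 1.84, adjusted p = 0.0402, edgeR). Rat 2 was the highest by far, and rat 3 lay inside the PBS Week 2 range. The gene labelled Ighe had 569.8, 1554, 364 and 617 CPM in PBS Week 3 rats 1 to 4, against 181, 173, 288 and 341 CPM in PBS Week 2 rats 1 to 4 (log2 fold change 1.66, adjusted p = 0.0324, edgeR). Its annotated span, chr6:138054662-138662511, is far longer than a constant-region gene, so reads from other heavy-chain genes may be counted in it. Bank1, a B cell scaffold, rose with a log2 fold change of 0.88.

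Other leukocyte lists showed few calls. Of 24 macrophage and monocyte genes, Tlr7 (log2 fold change 0.94), an endosomal RNA sensor, rose and Apoe fell by 0.62. None of 10 neutrophil genes was called by edgeR or limma-voom, with 2 higher and none lower at an unadjusted p below 0.05, and DESeq2 called 1. None of 8 mast cell and basophil genes was called by edgeR, DESeq2 or limma-voom, with 1 higher and 1 lower at an unadjusted p below 0.05. Summed neutrophil levels were 130.6 to 347.0 CPM in PBS Week 3 and 197.2 to 229.4 CPM in PBS Week 2 lungs.

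Mitochondrially encoded transcripts were higher at Week 3. They made up 4.05 to 5.41% of counts in PBS Week 3 libraries and 2.87 to 3.28% in PBS Week 2 libraries (means 4.76 ± 0.607% and 3.05 ± 0.180%, SD, n = 4 each, two-sided exact permutation p = 0.0286, adjusted 0.143 over 5 library measures). Of 37 genes on the mitochondrial chromosome 16 were tested, 11 rose, none fell and all 16 had a positive fold change (median log2 fold change 0.81). ND1, a subunit of respiratory complex I, had 3490, 4222, 4387 and 2996 CPM in PBS Week 3 rats 1 to 4, against 2103, 2126, 2354 and 2053 CPM in PBS Week 2 rats 1 to 4 (log2 fold change 0.81, SE 0.12, adjusted p = 0.0167, edgeR). ND3 had 658, 828, 879 and 465 CPM in PBS Week 3 rats 1 to 4, against 312, 327, 339.5 and 290.3 CPM in PBS Week 2 rats 1 to 4 (log2 fold change 1.16, adjusted p = 0.0167, edgeR). In both genes rat 4 was the lowest of PBS Week 3, the opposite of its place in the interferon-stimulated list. Of the 5 called genes of the mitochondrially encoded list none was called without PBS Week 2 rat 2, 3 or 4. The share of mitochondrial transcripts moved with the week, and its part in the other differences was not tested.

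Of 12 tested erythroid genes Hba-a1, an alpha-globin gene, fell, none rose and 11 did not pass the test. DESeq2 called 3 lower and limma-voom 4, and 8 were lower at an unadjusted p below 0.05. Hba-a1 had 172, 379, 30.5 and 91.5 CPM in PBS Week 3 rats 1 to 4, against 410.0, 1010, 1038 and 577 CPM in PBS Week 2 rats 1 to 4. The highest PBS Week 3 rat was just below the lowest PBS Week 2 rat (log2 fold change −2.17, SE 0.61, adjusted p = 0.0464, edgeR). The 5 haemoglobin genes together took 0.00887 to 0.0839% of counts in PBS Week 3 and 0.0795 to 0.212% in PBS Week 2 libraries (two-sided exact permutation p = 0.0571, adjusted 0.143). The summed erythroid level was 281.6 to 1056 CPM in PBS Week 3 and 998.8 to 2389 CPM in PBS Week 2 lungs. The ranges of both measures overlapped between the weeks, and the part of blood RNA in the NK, B cell and interferon-stimulated results was not tested.

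Collagen and other extracellular matrix genes fell. Of 40 tested identifiers, 12 fell, none rose and 28 did not pass the test (median log2 fold change −0.36), and 15 had all PBS Week 3 rats below all PBS Week 2 rats. DESeq2 called 12 lower and 1 higher, and limma-voom 10 lower. Col1a1 (chr10:82745801-82762789), the main chain of type I collagen, had 417, 641, 403 and 504 CPM in PBS Week 3 rats 1 to 4, against 852, 1035, 824 and 882 CPM in PBS Week 2 rats 1 to 4. The groups were apart and every PBS Week 3 rat was lower (492 ± 109 CPM in PBS Week 3 and 898 ± 94.1 CPM in PBS Week 2 lungs, SD, n = 4 each, log2 fold change −0.87, SE 0.15, adjusted p = 0.0194, edgeR). Col15a1, a basement membrane collagen, was counted under 2 identifiers. ENSRNOG00000039197 (chr5:64476317-64542645) had 8.93, 3.48, 7.93 and 7.83 CPM in PBS Week 3 rats 1 to 4, against 29.2, 36.7, 27.1 and 34.2 CPM in PBS Week 2 rats 1 to 4 (log2 fold change −2.17, SE 0.25, adjusted p = 0.00889, edgeR). ENSRNOG00000060381 had 25.2, 23.7, 9.88 and 27.1 CPM in PBS Week 3 rats 1 to 4, against 82.3, 60.6, 44.5 and 63.7 CPM in PBS Week 2 rats 1 to 4 (log2 fold change −1.55, adjusted p = 0.0203, edgeR). Both identifiers fell in every PBS Week 3 rat.

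Further matrix genes to fall were Col8a2 (log2 fold change −0.92), Loxl2 (−0.74), a collagen cross-linking enzyme, the membrane protease Mmp14 (−0.73), the glycoprotein tenascin C gene Tnc (−0.71), Col5a1 (−0.69), Col18a1 (−0.61) and Col6a1 (−0.61). The list mean stood −0.51, −0.35, −0.52 and −0.40 from the PBS Week 2 mean in PBS Week 3 rats 1 to 4, against 0.02, 0.06, −0.14 and 0.06 in PBS Week 2 rats 1 to 4. All 4 PBS Week 3 rats stood below the 4 PBS Week 2 rats. One gene was called without PBS Week 2 rat 2, 3 or 4, and 6 without PBS Week 3 rat 3.

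**Figure D4:**
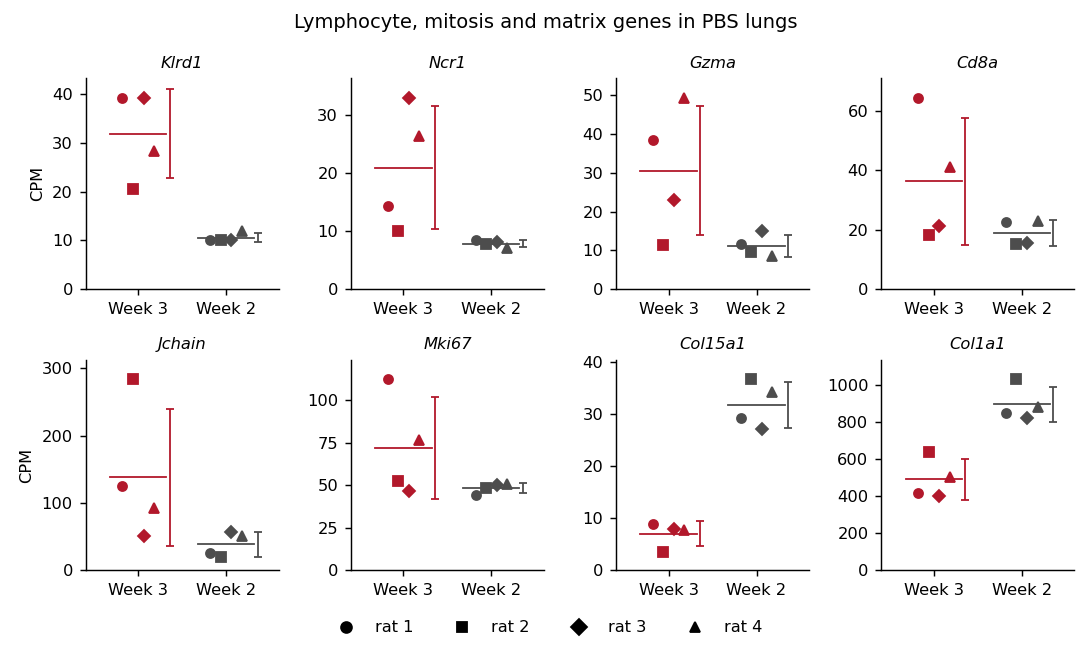
CPM (linear axes from 0) of NK and T cell, plasma cell, mitosis and matrix genes in PBS Week 3 rats (left, red) and PBS Week 2 rats (right, grey), drawn with a marker shape per rat, the mean as a line and ± 1 SD as the bar (n = 4 each). Col15a1 is ENSRNOG00000039197. Klrd1 lies between 20.5 and 39.3 CPM in PBS Week 3 and between 10.1 and 12 CPM in PBS Week 2 lungs, and both collagen genes are lower in every PBS Week 3 rat.

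Of 8 tested alveolar epithelial genes 2 fell, none rose and 6 did not pass the test, with a median log2 fold change of −0.02. Ager, the receptor RAGE and a marker of alveolar type 1 cells, had 1075, 1041, 988 and 1222 CPM in PBS Week 3 rats 1 to 4, against 1695, 1950, 2104 and 1772 CPM in PBS Week 2 rats 1 to 4. All PBS Week 3 rats were lower (1.74-fold, log2 fold change −0.80, SE 0.10, adjusted p = 0.0113, edgeR). Col4a3, a basement membrane collagen chain of type 1 cells, had 101, 70.6, 79.5 and 104 CPM in PBS Week 3 rats 1 to 4, against 206, 138, 191 and 169 CPM in PBS Week 2 rats 1 to 4 (log2 fold change −0.99, adjusted p = 0.0175, edgeR). Ager and Col4a3 were the 2 that fell. Of 21 airway epithelial genes 2 rose and 1 fell, which is close to the shares of all genes with a symbol given above. Scgb1a1, the club cell secretoglobin, had 10500, 13835, 17959 and 12559 CPM in PBS Week 3 rats 1 to 4, against 5723, 8538, 8293 and 7157 CPM in PBS Week 2 rats 1 to 4 (log2 fold change 0.88, SE 0.17, adjusted p = 0.021, edgeR). The groups did not overlap. Ccdc39 (0.85), a ciliary assembly factor, rose and Tppp3 (−0.69), a ciliated cell marker, fell. The share of the lung taken as airway or as parenchyma was not recorded in the sources used here.

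Of 42 endothelial genes Esm1 rose and Gja4 fell. Esm1, an endothelial tip cell proteoglycan, had 22.9, 26.7, 45.1 and 19.8 CPM in PBS Week 3 rats 1 to 4, against 15.5, 11.7, 11.5 and 13.8 CPM in PBS Week 2 rats 1 to 4 (log2 fold change 1.12, SE 0.24, adjusted p = 0.0263, edgeR). Gja4, the arterial connexin 37, fell by 0.72 on the log2 scale. Among the largest falls outside the lists was Vash1, an endothelial inhibitor of angiogenesis, with 8.14, 11, 5.54 and 9.76 CPM in PBS Week 3 rats 1 to 4, against 20.1, 19.6, 28.1 and 28.4 CPM in PBS Week 2 rats 1 to 4 (log2 fold change −1.48, SE 0.22, adjusted p = 0.0175, edgeR). No PBS Week 3 rat reached the PBS Week 2 range. Hmgn1 (log2 fold change −1.65), a nucleosome-binding protein, Naa38 (−1.40), an N-acetyltransferase subunit, and the growth factor gene Mdk (−1.32) were others of the 12 largest falls.

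Among the remaining lists, none of the circadian clock, glucocorticoid-responsive, immediate early, heart and skeletal muscle, adipocyte, mesothelial or xenobiotic genes was called by edgeR. Chordc1 (0.80), Cacybp (0.79) and Dnajb9 (0.77) were the 3 of 10 heat shock and chaperone genes to rise. Scd (0.88), a fatty acid desaturase, was the 1 of 9 sterol and fatty acid genes to rise.

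MCT rats of the same days were then used to ask whether the change between weeks was shared by treated lungs. Of 16263 genes tested in MCT lungs, 179 were higher (1.10%) and 302 lower (1.86%) at Week 3 than at Week 2. Leaving out 1 library gave 30 to 393 higher and 142 to 426 lower, and moved a count by over 1.5 times without MCT Week 3 rat 1 (393 higher), rat 2 (96 higher and 185 lower), rat 3 (102 higher) or rat 4 (30 higher and 152 lower), and without MCT Week 2 rat 3 (60 higher) or rat 4 (35 higher and 142 lower). Of the 421 genes that rose in PBS lungs 419 were tested in MCT lungs, where 117 had a positive and 302 a negative fold change, 1 was called higher and 5 lower. Of the 368 that fell in PBS lungs, 239 had a positive and 129 a negative fold change in MCT lungs, 7 were called higher and 20 lower. Beside these, 15675 of all genes tested in PBS lungs were also tested in MCT lungs. Of these, 7990 had a positive and 7685 a negative fold change in MCT lungs, 168 were called higher and 300 lower. The median log2 fold change of the PBS-higher genes was 0.76 in PBS and −0.14 in MCT lungs, and that of the PBS-lower genes was −0.75 in PBS and 0.13 in MCT lungs.

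The difference of the 2 changes was tested as an interaction over the 16 libraries. Of 16893 genes tested, 1584 had a change more positive in PBS than in MCT lungs (9.38%) and 1250 a more negative one (7.40%), together 16.8%, at an adjusted p below 0.05 (edgeR quasi-likelihood test with Benjamini-Hochberg adjustment). With 1 library left out these counts lay between 858 and 2190 and between 647 and 1725, lowest without MCT Week 3 rat 4 and highest without MCT Week 3 rat 1. They were also over 1.5 times lower without PBS Week 2 rat 3 (981 and 760), without MCT Week 2 rat 4 (1003 and 723) and, for one direction, without PBS Week 2 rat 2 (818), MCT Week 3 rat 2 (997) or MCT Week 3 rat 3 (797). With all 24 libraries in 1 fit 9 and 3 genes were called. The 26 interferon-stimulated genes that rose in PBS lungs belong to a list of which no member was called in MCT lungs by edgeR (median log2 fold change −0.24), and 30 of the 47 had a more positive change in PBS lungs. List members have symbols because the study listed them as changed between MCT and PBS lungs of these same rats. That choice favours a difference between treatments. The list counts here and below are therefore not independent evidence of one, and the share among all genes with a symbol is not given. Mx1 averaged 42.4 ± 22.2 CPM in MCT Week 3 and 45.2 ± 17.4 CPM in MCT Week 2 lungs (SD, n = 4 each), and its change was 2.18 log2 units more positive in PBS lungs (adjusted p = 0.0268, edgeR). Neither MCT group mean reached the level of the lowest PBS Week 3 rat.

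NK genes had a median log2 fold change of −0.13 in MCT lungs, and 10 of 18 had a more positive change in PBS lungs. Klrd1 averaged 6.92 ± 2.11 CPM in MCT Week 3 and 7.35 ± 0.86 CPM in MCT Week 2 lungs (SD, n = 4 each), and its change was 1.68 log2 units more positive in PBS lungs (adjusted p = 0.0052, edgeR). The PBS Week 3 level was the highest of the 4 group means. The matrix list had a median log2 fold change of −0.09 in MCT lungs, with 9 of 40 changes more negative and 1 more positive in PBS lungs. For mitosis genes, 17 of 53 were lower in MCT Week 3 than in MCT Week 2 lungs, and 27 had a more positive change in PBS lungs. Of 42 endothelial genes 1 was lower and 1 higher at Week 3 in PBS lungs, against 22 lower and 2 higher in MCT lungs, and 21 had a more positive change in PBS lungs. Apoe fell in PBS lungs and rose in MCT lungs (log2 fold change 0.81, adjusted p = 0.00752, edgeR), a difference of −1.43 (adjusted p = 0.000689).

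Esm1 and Gja4 changed in the same direction in both treatments. The log2 fold change of Esm1 was 1.12 in PBS and 1.17 in MCT lungs, a difference of −0.05 (adjusted p = 0.939, edgeR). That of Gja4 was −0.72 in PBS and −0.67 in MCT lungs, a difference of −0.04 (adjusted p = 0.889, edgeR). Both were called in each treatment. They were singled out after their values were seen.

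The spread between rats was then set beside that of MCT lungs. The median SD of log2 CPM over the interferon-stimulated genes was 0.55 in PBS Week 3 and 0.17 in PBS Week 2 lungs, and 0.33 in MCT Week 3 and 0.30 in MCT Week 2 lungs. Over all genes it was 0.283 in PBS Week 3 and 0.187 in PBS Week 2 lungs, and 0.244 in MCT Week 3 and 0.218 in MCT Week 2 lungs. The gap between weeks was thus wider in PBS than in MCT lungs in these values, and that difference was not tested.

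**Figure D5:**
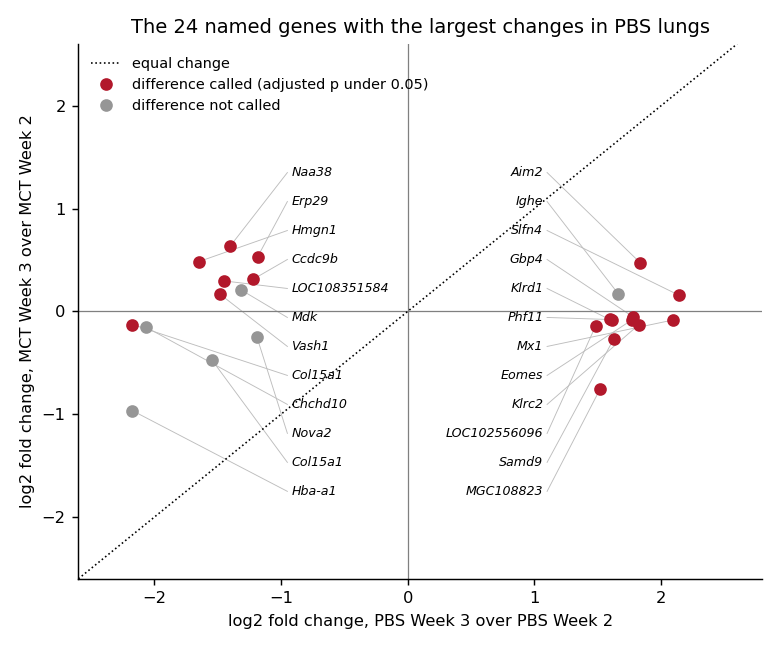
Log2 fold change of Week 3 over Week 2 in PBS lungs (horizontal axis) and in MCT lungs (vertical axis) for the 12 named identifiers with the largest rise and the 12 with the largest fall in PBS lungs. Red points are the 18 of 24 whose change differed between PBS and MCT lungs in the interaction test (a count favoured by choosing genes on the PBS change), and the dotted line marks equal changes. Mx1 lies at 2.09 in PBS and −0.08 in MCT lungs.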

How the data were processed

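Poly(A) RNA from a piece of lung of each of 24 rats was sequenced with a strand-marking kit, and the 8 PBS libraries of Weeks 3 and 2 were analysed, with 8 MCT libraries beside them. Per the labels and the study's methods, the authors aligned reads with HISAT2 2.0.5 to Rnor_6.0 and counted them per gene with featureCounts 2.0.3. The deposited values are raw counts for 32883 genes. The strand setting of the counting and the annotation release are not given in the sources used here. Columns holding the authors' own comparisons were not used.

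Genes passing edgeR's filterByExpr were tested with edgeR 4.0.16 (TMM scaling, quasi-likelihood test, Benjamini-Hochberg adjustment over all genes tested) under R 4.3.3, on the 4 PBS Week 3 and 4 PBS Week 2 libraries. A gene was called at an adjusted p below 0.05 and a change over 1.5-fold. MCT lungs were fitted in the same way, and the difference of the 2 changes as an interaction over 16 libraries, called at an adjusted p below 0.05 with no fold threshold. CPM are TMM-scaled over the 8 PBS libraries (over all 24 for MCT and PBS Week 1 values), and SDs between rats use log2 CPM with a prior count of 2. A named p is always adjusted unless called unadjusted. The code was tested on simulated data.

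Gene symbols came from the study's own list of changed genes, which held 3275 of the identifiers. Named genes were, among called genes with a symbol, non-overlapping groups and at least 5 CPM in the higher group, the 12 with the largest rise and the 12 with the largest fall, then up to 6 called members of each list, the most variable members of immune lists, 2 identifiers per direction without a symbol and lung markers. The members and lists were chosen with earlier results of these data known. Genes with the largest changes that are not described in the text were left out for length. Promoter sequences came from RefSeq (GRCr8), matched by gene identifier. Alternatives were DESeq2 1.42.0, limma 3.58.1 (voom with quality weights), other scalings, filters and thresholds, other sets of libraries, and each library left out in turn. No identical libraries were found. Each library is a separate rat, so the p-values judge differences between group means against the spread between rats. The spread itself was not tested.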

Additional observations from a re-analysis of the deposited data

Results flagged for a closer look

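In 178 groups of 4 rats (named genes and list means), 5 held a rat far from the other three, and chance flags about 1 in 20 such groups. These were Col6a1 in PBS Week 3 rat 3 (132 CPM, the lowest), ND4 in PBS Week 2 rat 3 (334 CPM), Slfn4 in PBS Week 2 rat 2 (302 CPM), Klrd1 in PBS Week 2 rat 4 (12 CPM) and the mean of the mitochondrially encoded list in PBS Week 2 rat 3 (0.226 log2 units above the PBS Week 2 mean).

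The change from Week 2 to Week 3 differed between PBS and MCT lungs by the interaction test in 1584 genes with a more positive and 1250 with a more negative change in PBS lungs (edgeR, adjusted p below 0.05). Among the 24 named genes chosen for the largest changes in PBS lungs, 18 were called, a count that the choice itself favours, since the PBS change is a term of the difference. The difference was positive on the log2 scale for MGC108823 (2.27), Mx1 (2.18), Slfn4 (2.00), Klrc2 (1.96), Samd9 (1.90), Eomes (1.86), Gbp4 (1.84), Phf11 (1.70), Klrd1 (1.68), LOC102556096 (1.63) and Aim2 (1.36). It was negative for Hmgn1 (−2.13), the Col15a1 identifier ENSRNOG00000039197 (−2.04), Naa38 (−2.03), LOC108351584 (−1.74), Erp29 (−1.71), Vash1 (−1.64) and Ccdc9b (−1.53).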

How the results depend on the processing

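The counts of genes higher and lower in PBS Week 3 lungs were 421 and 368. They were 924 and 719 without the fold threshold, 781 and 743 with unadjusted p-values and the fold threshold, and 0 and 0 with all 24 libraries in 1 fit. Other scalings, filters, a robust dispersion, DESeq2, limma-voom and the fit to 16 libraries stayed within 1.5 times of the counts reported. With all 24 libraries the interferon-stimulated, NK, matrix and mitochondrially encoded lists had 0 calls each, and the PBS against MCT difference had 9 and 3. For MCT lungs DESeq2 called 456 higher. The median SD of all genes with at least 10 counts in every library was 0.256 in PBS Week 3 and 0.171 in PBS Week 2 lungs. The cause was not tested. With each library left out in turn, calls ranged from 5 to 657 higher and 6 to 530 lower in PBS lungs, from 30 to 393 and 142 to 426 in MCT lungs, and from 858 to 2190 and 647 to 1725 for the difference. The lists ranged from 1 to 36 (interferon-stimulated), 0 to 15 (NK), 1 to 11 (matrix) and 0 to 5 (mitochondrially encoded). Log2 fold changes ranged from −0.30 to 0.82 for Cxcr3, −0.10 to 0.68 for Icos and −0.50 to 0.50 for Cd6, all uncalled T cell genes that turned negative without PBS Week 3 rat 1. Median SDs ranged from 0.37 to 0.663 and 0.137 to 0.159 (interferon-stimulated, PBS Week 3 and PBS Week 2), 0.434 to 0.704 and 0.223 to 0.268 (NK), and 0.231 to 0.28 and 0.171 to 0.183 (all genes).

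Deviations of same-numbered rats of the 2 weeks had correlations of −0.045, 0.051, −0.045 and 0.003, against −0.090 to 0.083 for other pairs. The numbers name different rats taken on different days. These values cannot show whether the numbers also carry a processing order. With the replicate number as a block, calls were 47 higher and 51 lower in PBS lungs, 40 and 125 in MCT lungs, and 5 interferon-stimulated, 1 NK and 5 matrix genes.

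With 4 rats a group, single libraries decide how many genes pass the threshold. The counts were lowest without PBS Week 2 rat 2 (5 higher and 6 lower), rat 3 (8 and 8) or rat 4 (6 and 7). Why they fell was not tested. Low genes near 1 CPM rest on few reads. Named genes are those the study had listed for MCT against PBS with the same control rats, so unnamed changes are under-described.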

Other observations

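The PBS Week 1 rats entered only the fits to all 24 libraries and the scaling over those libraries. Their mean log2 CPM of the interferon-stimulated list stood at −0.36, −0.43, 0.37 and 0.10 relative to the PBS Week 2 mean in rats 1 to 4. All were below PBS Week 3 rats 2, 3 and 4. The NK and cytotoxic list stood at 0.13, −0.67, −0.26 and 0.298 in the same rats, all below PBS Week 3 rats 1, 3 and 4. Rat 4 of PBS Week 1 was above PBS Week 3 rat 2 (0.289). The matrix list stood at −0.24, 0.23, −0.55 and −0.33 in PBS Week 1 rats 1 to 4. Rats 1, 3 and 4 were thus below every PBS Week 2 rat, and rat 2 was above them. The mitosis list stood at 0.25, 0.35, 0.89 and 0.26, all above every PBS Week 2 rat. In MCT Week 3 rats 1 to 4 the interferon-stimulated list stood at −0.51, −0.64, 0.09 and −0.43. In MCT Week 2 rats 1 to 4 it stood at 0.07, 0.00, −0.53 and 0.04. Among the 20 rats listed, the interferon-stimulated list was highest in PBS Week 3 rats 4, 2 and 3 (lowest of them 0.897). The next was PBS Week 1 rat 3 (0.373). This ranking describes a list chosen with earlier results known and is not a test.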
